A study of Mus musculus with 16 samples.

Results

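Chromatin accessibility was compared between Thy1+ spermatogonia (Thy1) and c-Kit+ spermatogonia (cKit) of wild-type mice. The comparison rests on 4 of the 16 libraries of the series, 2 for each stage, chosen by their titles and genotype label. ATAC-seq uses the Tn5 transposase, which inserts sequencing adapters where DNA is accessible, and the deposited data are the peaks called in each library. Peaks of the 4 lists that shared at least 1 bp were merged into 157837 regions, out of 367750 regions when all 16 libraries are merged. Both stages came from testes of C57BL/6 mice at postnatal day 7, and no allele was altered in these 4 libraries. Scml2-KO libraries of the same 2 cell types, and wild-type pachytene spermatocytes and round spermatids from adults, served only as libraries that had not chosen the regions. Each transposition used about 500000 cells for spermatogonia, 250000 for spermatocytes and 1000000 for spermatids. A gel step kept fragments between 250 and 500 bp, which were read from one end over 75 bp. The labels do not say whether libraries came from separate animals or pools, nor how pure the sorted fractions were.

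Spermatogonia are the mitotic germ cells of the testis. The Thy1 fraction of the young testis holds spermatogonial stem cells and their progenitors, which are maintained by glial cell line-derived neurotrophic factor (GDNF) from Sertoli cells acting through GFRA1 and RET. Retinoic acid drives progenitors into differentiation, at which point they gain the receptor KIT, bind its ligand from Sertoli cells, divide a fixed number of times and enter meiosis. Promoters of active genes are usually accessible in many cell types, whereas distal accessible sites tend to be specific to a cell type.

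The Thy1 lists held 135892 and 75038 peaks and the cKit lists 83378 and 32356, in replicates 1 and 2. Fold enrichment, the summit coverage over a background constant for each library, is the authors' value for each peak. Its lowest value was 3.01, 3.27, 3.56 and 3.6 in the same order. Since the lists differ in length and lowest fold, each count was also made on the 32356 peaks of each list with the highest −log10 q, called equal lists below. The weakest fold left in an equal list was 8.44 and 6 in Thy1 and 7.12 and 3.6 in cKit. Read depth is unknown, a missing peak is not closed chromatin, and 2 against 2 libraries allow no two-sided exact p under 0.333, so values and counts are given without a test. The libraries are bulk samples, in which fewer accessible cells and less access per cell cannot be told apart.

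Promoter sequences of 5 genes named in the comparison are shown first. The windows run from 250 bases before to 50 after a RefSeq transcription start (GRCm38.p6), all on the plus strand and 5′ to 3′. Kit (chr5:75574737-75575036) is the gene of the cKit sort. Gpx3 (chr11:54902604-54902903), an extracellular glutathione peroxidase, and Rxrg (chr1:167598112-167598411), a retinoid X receptor, lie in promoter regions that ranked higher in Thy1. Rec8 (chr14:55617916-55618215), the meiotic cohesin subunit, and Aldh1a2 (chr9:71215539-71215838), a retinaldehyde dehydrogenase that makes retinoic acid, lie in promoter regions that ranked higher in cKit. Capitals mark matches, on either strand, to 19 short motifs given with the composition of promoters further on.
Kit: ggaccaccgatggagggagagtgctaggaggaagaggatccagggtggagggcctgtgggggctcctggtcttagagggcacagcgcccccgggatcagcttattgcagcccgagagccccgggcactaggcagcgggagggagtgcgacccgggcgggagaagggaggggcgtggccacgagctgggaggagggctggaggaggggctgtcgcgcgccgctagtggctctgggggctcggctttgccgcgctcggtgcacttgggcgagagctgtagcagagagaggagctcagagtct
Gpx3: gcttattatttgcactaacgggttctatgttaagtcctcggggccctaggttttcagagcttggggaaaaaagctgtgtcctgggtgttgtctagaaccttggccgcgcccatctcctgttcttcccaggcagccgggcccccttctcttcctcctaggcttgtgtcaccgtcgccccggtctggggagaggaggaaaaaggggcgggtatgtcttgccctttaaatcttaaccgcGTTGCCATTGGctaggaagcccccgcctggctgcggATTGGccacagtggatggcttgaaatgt
Rxrg: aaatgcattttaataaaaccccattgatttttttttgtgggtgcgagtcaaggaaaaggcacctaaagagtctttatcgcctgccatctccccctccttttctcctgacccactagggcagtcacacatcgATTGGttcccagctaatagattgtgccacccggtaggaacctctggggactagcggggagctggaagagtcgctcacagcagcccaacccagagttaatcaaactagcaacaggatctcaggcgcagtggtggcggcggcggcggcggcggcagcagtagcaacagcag
Rec8: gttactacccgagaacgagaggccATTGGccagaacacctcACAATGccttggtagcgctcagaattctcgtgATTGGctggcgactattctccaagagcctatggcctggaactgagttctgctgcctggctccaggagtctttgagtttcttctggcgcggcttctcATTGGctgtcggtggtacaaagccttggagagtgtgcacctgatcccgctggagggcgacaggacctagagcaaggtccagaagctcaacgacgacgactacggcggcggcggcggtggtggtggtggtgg
Aldh1a2: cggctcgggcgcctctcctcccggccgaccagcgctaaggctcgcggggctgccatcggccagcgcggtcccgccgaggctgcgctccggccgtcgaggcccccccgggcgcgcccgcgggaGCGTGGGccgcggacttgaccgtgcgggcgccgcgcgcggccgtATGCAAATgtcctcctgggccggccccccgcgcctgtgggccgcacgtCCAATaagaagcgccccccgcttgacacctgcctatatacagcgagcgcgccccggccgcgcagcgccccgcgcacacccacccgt
The Kit window held no match to the motifs searched. Gpx3 held the RFX motif overlapping an NFY motif just before the start, and another NFY motif past the start. Rxrg held 1 NFY motif. Rec8 held 3 NFY motifs and 1 SOX motif. Aldh1a2, with 78% G and C and 50 CpG pairs, held a WT1/EGR motif, an octamer and an NFY motif. Such a match describes letters, not a bound site.

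The genes of the sort were read first as a check of the labels. Thy1, the surface glycoprotein used to select the stem and progenitor fraction, had a promoter peak (chromosome 9, start at 44043384) with fold enrichments of 8.44 and 5.45 in Thy1 and none in either cKit library. Without Scml2 the same promoter had 5.6 and 3.18 in Thy1 and no peak in cKit. Kit, the receptor tyrosine kinase used to select the other fraction (chromosome 5, start at 75574987), had a promoter peak in all 4 libraries, with 16.9 and 11.5 in Thy1 and 16.6 and 9.25 in cKit. On the deposited lists the Thy1 promoter thus separated the fractions by presence, and the Kit promoter did not. On equal lists the Thy1 promoter peak was kept in Thy1 replicate 1 alone, so this separation was not met there. Among the regions in all 4 lists the Kit promoter nevertheless ranked higher in cKit, with a gap of 11.7 percentile points between the lower cKit and the higher Thy1 rank. Its folds overlapped between the stages and were not higher in cKit, so only its ranks within each library differed.

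Other Kit regions pointed both ways. An intergenic region 146721 bp from the start (75428109 to 75428424) had no Thy1 peak and cKit folds of 8.31 and 4.63, and it was cKit-only on deposited and equal lists alike. An intronic region (75580077 to 75580358) had 4.15 and 4.63 in cKit and none in Thy1. Next to the main promoter peak, a region centred 727 bp from the start (75575463 to 75575974) had 9.65 and 7.63 in Thy1 and 5.34 in cKit replicate 1, with none in cKit replicate 2. This region was Thy1-only on equal lists. The strongest intronic Thy1-only region (75632349 to 75632601) had 6.03 and 6 in Thy1.

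**Figure D1:**
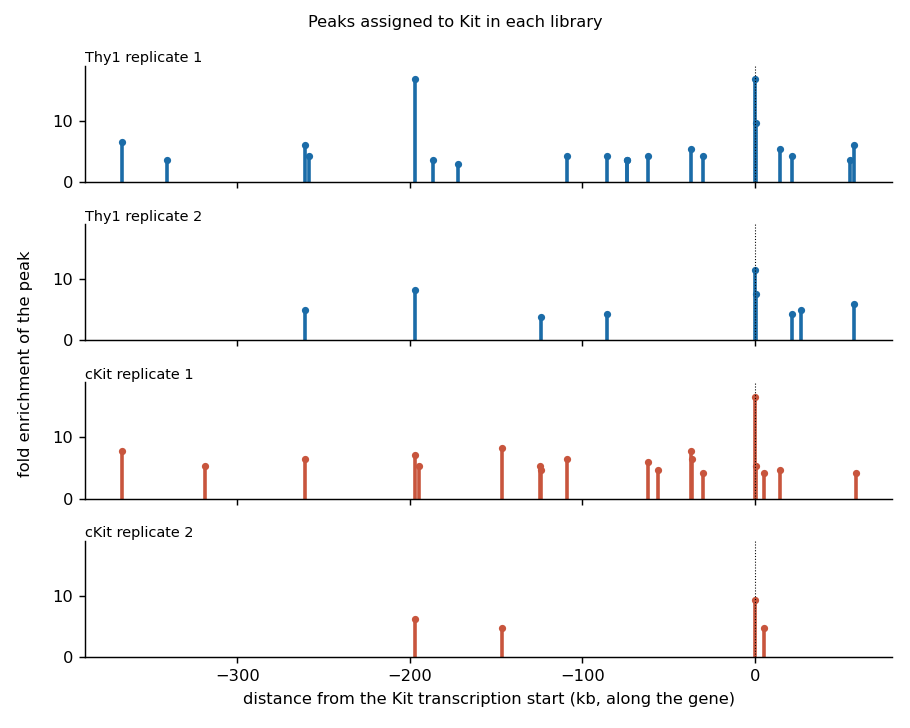
Peaks that the authors assigned to Kit, 1 row for each library, by the distance of their region from the Kit transcription start (x axis, kb) and their fold enrichment (y axis). The promoter peak stands in all 4 rows, with 16.9, 11.5, 16.6 and 9.25, and a peak 146721 bp before it stands only in the 2 cKit rows.

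On the lists as deposited, 15553 regions had a peak in both Thy1 libraries and in neither cKit library (9.85% of regions, called Thy1-only), and 524 had the reverse pattern (0.332%, cKit-only). All 4 lists shared 25140 regions. On equal lists the gap between the directions was small, with 2953 Thy1-only regions (5.71% of 51696) and 2437 cKit-only regions (4.71%), and 16795 regions in all 4. Regions counted so both ways numbered 765 for Thy1 and 168 for cKit. The deposited counts moved with single libraries. Without cKit replicate 2, the shortest list, 16407 regions were Thy1-only and 14690 cKit-only, and without Thy1 replicate 2 these were 71155 and 816. Many equal-list calls were differences of strength. Of the 2953 Thy1-only regions, 2188 had a peak in the full list of cKit replicate 1. The list of cKit replicate 2 was not shortened, so it could add 0. Of the 2437 cKit-only regions, 2175 had a peak in the full list of Thy1 replicate 1, 1557 in that of replicate 2 and 1463 in both. Within replicate number 1 of the titles, equal lists gave 11035 regions in Thy1 and not in cKit against 10236 the other way, and within number 2 they gave 9973 against 7747.

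**Figure D2:**
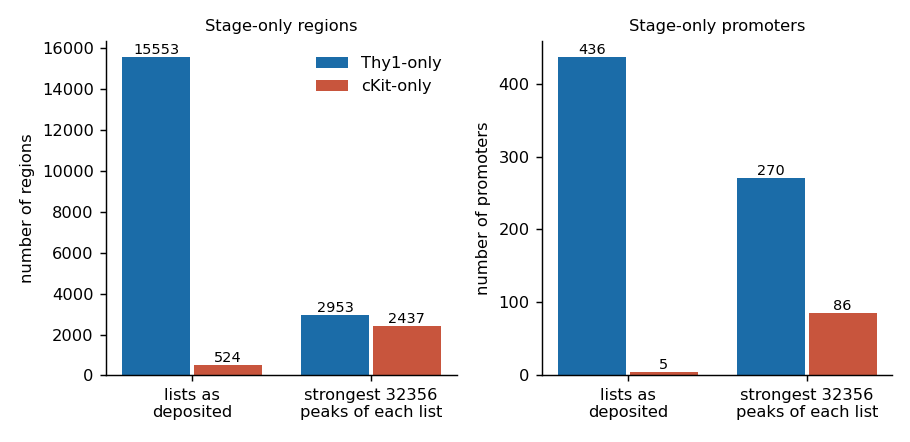
Numbers of stage-only regions (left) and stage-only promoters (right), from the lists as deposited and from the strongest 32356 peaks of each list, with Thy1-only in blue and cKit-only in red. Deposited lists gave 15553 against 524 regions, and equal lists 2953 against 2437.

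Stage-only regions were weak in both stages. Of 25731 regions whose lower Thy1 fold lay between 3 and 5, 46.6% were Thy1-only, against 23.9% between 5 and 7, 6.93% between 7 and 10, 0.694% between 10 and 15, and 0% of 7979 at 15 or more. For cKit the shares were 5.1%, 1.74% and 0.137% in the 3 lower bins and 0% above. Every region with a fold of 15 or more in both cKit libraries (2514) had a peak in both Thy1 libraries too. The libraries of a stage overlapped a little more than libraries of different stages, with a Jaccard index (regions in both lists over regions in either) of 0.594 for the Thy1 pair and 0.554 for the cKit pair on equal lists, against 0.496 to 0.548 across stages. On the deposited lists the pairs of a stage had 0.425 and 0.348 and the pairs across stages 0.206 to 0.454, so Thy1 replicate 2 overlapped cKit replicate 1 more than either overlapped its own replicate.

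**Figure D3:**
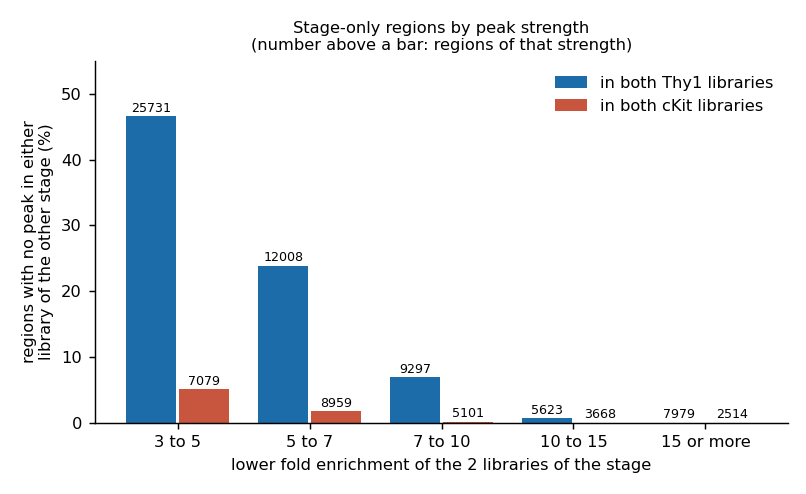
Share of regions found in both libraries of a stage that had no peak in either library of the other stage (y axis, %), by the lower of the 2 fold enrichments (x axis), with the number of regions above each bar. The Thy1 share is 46.6% in the weakest bin and 0% at 15 or more.

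Stage-only regions were mostly distal, as were regions in general, of which 13.9% lay within 1 kb of a transcription start (27.2% on equal lists). Of the regions in all 4 lists, 47.2% lay that near, against 6.83% of the Thy1-only and 2.67% of the cKit-only regions. Regions found in a single library had 6.07% to 6.94%, so the share of the Thy1-only regions was not particular to them. With equal lists these shares were 62.4%, 11.4% and 5.29%. Introns held 36% and intergenic sequence 35.3% of the equal-list Thy1-only regions, and 40.1% and 33.9% of the cKit-only ones, by the authors' classes. Stage-only regions occurred on every autosome in both directions. On equal lists chromosome 11 had 7.53% of its regions Thy1-only and 2.66% cKit-only, whereas chromosome 6 had 4.56% and 6.04%. On the deposited lists the X chromosome held 2.24% of all regions, 2.53% of the Thy1-only and 0.954% of the cKit-only ones, the last being 5 regions. On equal lists these shares were 2.05%, 1.86% and 1.35%, so the order of the Thy1-only share and that of all regions turned.

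Distal Thy1-only regions, counted so both ways and ordered by their lower fold, began with a region 165818 bp from the nearest start and assigned to Rwdd3 (chromosome 3, 119948997 to 119949415; 14.5 and 13.1). An intron of Gipc2 (chromosome 3, 152145199 to 152145619) had 21.1 and 13.1. An intron of Fgf18, a fibroblast growth factor gene (chromosome 11, 33142741 to 33143259), had 13.9 and 13.1. None of these had a cKit peak. The others of the first 10 were assigned to Tasp1, C2cd2, Seh1l, 1700054K19Rik, Col1a2, Cdh5 and Nsun3, with lower folds of 12 to 12.5. Col1a2 encodes a chain of type I collagen and its region lay 17221 bp from the nearest start (chromosome 6, 4488234 to 4488719; 14.5 and 12). Cdh5 encodes VE-cadherin of endothelium, with 15.1 and 12 (chromosome 8, 104022150 to 104023767).

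Distal cKit-only regions had lower folds, on a scale that was itself lower in cKit, where the median over regions in all 4 lists was 10.7 and 6.68 against 14.5 and 10.9 in Thy1. An upstream region of 9330111N05Rik (chromosome 13, 80945593 to 80945901) led, with 8.31 and 7.71 in cKit. An intron of Rbpj, the DNA-binding effector of Notch signalling (chromosome 5, 53585611 to 53585948), had 10.1 and 6.68. A region assigned to the mismatch repair gene Msh6 (chromosome 17, 87896940 to 87897457) had 10.1 and 7.2, and one assigned to the spindle checkpoint gene Mad2l1 (chromosome 6, 65992178 to 65992371) had 7.12 and 6.68. A region 2543 bp from a start, shared by the centromere protein gene Cenpm and 1500009C09Rik (chromosome 15, 82247114 to 82247467), had 9.49 and 7.2. The remaining regions lay in introns of Astn2, Gp6, Nkain2 and Ptprg or near Gm17359. None of the 10 had a Thy1 peak.

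A gene was given a promoter peak in a library where a peak lay within 1 kb of one of its starts. Of 21359 genes, 12578 had one in all 4 libraries, 436 were Thy1-only (2.04%) and 5 were cKit-only (0.0234%). Equal lists gave 270 Thy1-only (1.26%) and 86 cKit-only (0.403%) promoters, and both ways together gave 37 and 3. These calls include wide peaks whose edge reached the window in Thy1 alone. Of the 37, 13 lay in a merged region that also held a cKit peak, and among the 10 strongest this was so for 9. Clec11a, a bone and blood growth factor gene, led with 39.8 and 34.4 in Thy1, yet its region held cKit peaks of 35 and 26.2 that ended outside the window. Snord100, Lor, 3000002C10Rik, Mir449a and Mir449b (which share a start), Tbrg3, 4933417D19Rik and Nyap1 were of the same kind.

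Ifnz, an interferon gene, was the member of the 10 whose region held no cKit peak (chromosome 4, 88782446 to 88782645), with 11.5 and 10.4 in Thy1. Regions near a start that were themselves Thy1-only both ways numbered 48, and those named here were chosen after their values were seen. Lgals9, encoding galectin-9, had 9.04 and 9.27 (chromosome 11, 78984772 to 78985159). Ddr1, a collagen-binding receptor tyrosine kinase, had 8.44 and 8.73 (chromosome 17, 35703856 to 35704322), and Drg2, a GTPase gene, had 12.1 and 8.18. Only 2 such regions were cKit-only. Gnat3, encoding the taste G protein gustducin (chromosome 5, 17963045 to 17963235), had 8.31 and 6.68 in cKit, and Klk13, a kallikrein protease (chromosome 7, 43711443 to 43711698), had 8.9 and 5.65. The other cKit-only promoters were Gdf1, Gm15915 and 1700034I23Rik, of which Gdf1 lay beside Thy1 peaks of 7.24 and 3.82. With equal lists alone, the strongest cKit-only promoters were Clec1a, G6b, Apba2, D930032P07Rik, 4930544G11Rik, Cd70, Cideb, Efcab1 and Nhlh1, all with lower cKit folds of 6.68 to 7.2. Each of these 9 had a peak in Thy1 replicate 1 at its start regions, with folds of 3.62 to 7.84. As deposited, all but 4930544G11Rik and Nhlh1 had a promoter peak in both Thy1 libraries. Apba2 and D930032P07Rik had 7.24 in Thy1 replicate 1 and 7.12 in cKit replicate 1, whose equal lists ended at 8.44 and 7.12.

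Strength was compared over shared regions. Each of the 25140 regions in all 4 lists was ranked by fold enrichment within each library, from 0 to 100. A region counted as ranked higher in a stage where its lower rank there exceeded its higher rank in the other stage by 10 points or more. This gave 1778 regions ranked higher in Thy1 (7.07%) and 1948 ranked higher in cKit (7.75%). Rank correlations across these regions, as a description, were 0.882 for the Thy1 pair, 0.781 for the cKit pair and 0.753 to 0.79 across stages. The 2 directions differed in where they lay, since 36.4% of the regions higher in Thy1 and 10.5% of those higher in cKit were within 1 kb of a start, against 47.2% of all shared regions. Leaving out 1 library at a time gave 3490 to 7863 and 3323 to 7503 regions, the most without cKit replicate 2. With log2 folds centred on each library's median in place of ranks, the near balance was lost, with 273 regions higher in Thy1 and 1618 in cKit. Among the 11867 shared regions near a start, 648 ranked higher in Thy1 (5.46%) and 204 in cKit (1.72%). Among the 13273 shared distal regions the numbers were 1130 (8.51%) and 1744 (13.1%).

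Ccnd2, encoding the G1 cyclin D2, had the largest gap of any promoter in favour of Thy1. Its region (chromosome 6, 127150320 to 127151399, shared with 9330179D12Rik) had folds of 19.9 and 14.2 in Thy1 and 5.93 and 4.63 in cKit, a gap of 49 points. Gpx3 followed with 14.5 and 10.4 against 4.75 and 3.6 (44.1 points). Tcf21, a transcription factor of mesenchymal cells, had 17.5 and 13.6 against 7.12 and 4.63 (40.6 points). Both stages were listed at these promoters, and the Thy1 values lay above both cKit values in each. Zfp365, Cyp4f16, Gm4262, Gstt3, Ebf4, Ier3ip1 and Dok5 made up the first 10, with gaps of 38.3 to 42.4 points. Distal regions reached larger gaps. A region upstream of 4933440J02Rik (chromosome 10, 111600108 to 111601180) had 21.1 and 16.4 against 5.34 and 4.63, a gap of 55.7. Regions assigned to Tle1, a Groucho corepressor, to Gli2, a Hedgehog effector, to the thyroid hormone receptor gene Thrb, to Serpine2 and to the ETS factor gene Etv4 had gaps of 44.1 to 54.2.

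In the cKit direction, the largest promoter gap was at 4930528A17Rik (chromosome 4, 21849110 to 21849706), with 7.84 and 7.63 in Thy1 and 19 and 10.3 in cKit, 46.7 points. Dux followed at 12.7 and 8.73 against 22 and 17.5, but it lies in a repeat array of near-identical copies and its reads are uncertain. Ptgdr, a prostaglandin D2 receptor gene, had 5.43 and 4.91 against 9.49 and 6.17 (32.5 points), and the receptor tyrosine kinase gene Ros1 had 4.82 and 4.36 against 11.3 and 5.65 (33 points). Clec1a, 4933431G14Rik, Mxra7, B630005N14Rik, Ralyl and Wdr92 had gaps of 32.9 to 40.3. The largest gap of all shared regions named here was a cKit one, 429827 bp from the nearest start and assigned to the axon guidance receptor gene Robo2 (chromosome 16, 73092708 to 73093245), with 6.63 and 4.91 in Thy1 and 20.2 and 11.3 in cKit, 68 points. Regions of the ephrin receptor genes Epha5 and Epha6 had 57.9 and 57.6 points, and an intron of the DNA repair kinase gene Prkdc had 57.5.

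**Figure D4:**
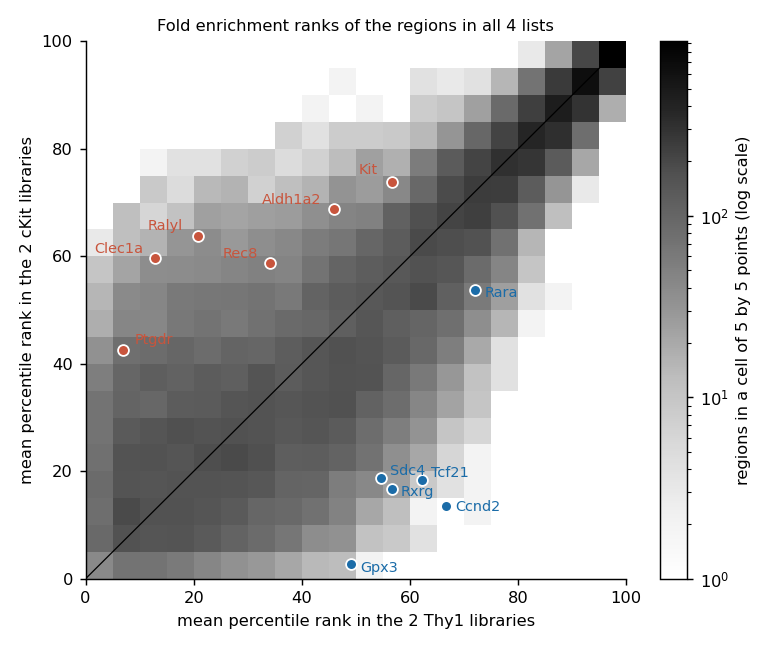
Mean percentile rank of fold enrichment in the 2 Thy1 libraries (x axis) and the 2 cKit libraries (y axis) for the 25140 regions in all 4 lists, shaded by the number of regions in each cell, with the diagonal as a line. Promoter regions named in the text are points, with Ccnd2 and Gpx3 far below the diagonal and Clec1a, Ralyl and Kit above it.

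Over all 21359 genes, 12578 had a promoter peak in all 4 libraries, 2.04% were Thy1-only and 0.0234% cKit-only. Of the 44 stem and progenitor genes, 22 had one in all 4 libraries, 3 were Thy1-only and 0 were cKit-only. The 3 were Nanos2, an RNA-binding protein that maintains stem cells (4.22 and 4.36 in Thy1), Nefm, a neurofilament gene (7.84 and 6), and Tspan8, a tetraspanin (3.01 and 3.82). All 3 were weak, and none was Thy1-only on equal lists. On equal lists, Zbtb16, encoding the progenitor factor PLZF, was Thy1-only, with 10.3 and 9.82 in Thy1, 5.93 in cKit replicate 1 and none in cKit replicate 2. Sox3, a transcription factor gene of progenitors, was cKit-only on equal lists, with 7.84 and 6 in Thy1 and 10.7 and 5.65 in cKit. Introns of Zbtb16 held 3 Thy1-only regions and 2 shared ones that ranked higher in Thy1. The stronger of these 2 (chromosome 9, 48736332 to 48736801) had 16.3 and 9.82 against 6.53 and 4.11. Sdc4, encoding syndecan-4, had a promoter of 15.1 and 12 against 8.9 and 3.6 (17.7 points), and with Ccnd2 it was one of the 2 shared promoter regions of the list, out of 25, that ranked higher in Thy1. None of the 25 ranked higher in cKit. With 5.46% and 1.72% of all shared promoter regions so ranked, counts of 2 and 0 in 25 lie near the background.

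The GDNF receptor genes had promoter peaks in both stages. Gfra1 had promoter folds of 6.63 and 6 in Thy1 and 5.34 and none in cKit, and Ret had 8.44 and 8.18 in Thy1 and 7.12 and none in cKit. A second small region at the Ret start (chromosome 6, 118197763 to 118197908) was Thy1-only, at 3.62 and 4.36. Etv5 and Id4, a GDNF-responsive ETS factor and an inhibitor of bHLH factors that marks stem cells, had peaks in all 4 libraries, with 35 and 32.7 against 29.7 and 21.6 for Etv5 and 25.9 and 23.4 against 22.5 and 10.8 for Id4. Distal regions of this list went both ways, with 4 Thy1-only and 6 cKit-only of 123 on equal lists, where 6.95% and 6.13% of all distal regions were so. Of 49 distal regions of the list in all 4 libraries, 5 ranked higher in Thy1 (10.2%) and 7 in cKit (14.3%), near the 8.51% and 13.1% of all shared distal regions. A region 8547 bp from a start near Nanos2 and Mypop (chromosome 7, 18978818 to 18979136) had 9.04 and 7.63 in Thy1 and 14.2 and 11.3 in cKit, 38.4 points. A region 8578 bp from a start assigned to Tcl1, a cofactor of AKT (chromosome 12, 105210758 to 105211243), had 6.03 and 6 against 13.1 and 7.2, and one near the POU factor gene Pou3f1 had 7.24 and 4.91 against 16 and 6.17. An intron of Ret (chromosome 6, 118189953 to 118190391) had 10.3 and 5.45 against 13.1 and 6.68, 20.1 points. Zfp462 carried regions of both kinds, with 1 Thy1-only and 2 cKit-only on equal lists and 9 Thy1-only as deposited.

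As deposited, 12578 of all 21359 genes had a promoter peak in all 4 libraries, 2.04% were Thy1-only and 0.0234% cKit-only. Among 30 genes of differentiating spermatogonia, 20 had a promoter peak in all 4 libraries and 0 were stage-only as deposited. Of their 25 shared promoter regions, 2 ranked higher in cKit, those of Kit and of Rec8, and 0 in Thy1, where 1.72% and 5.46% of all shared promoter regions did so. Rec8 had 12.7 and 7.09 in Thy1 and 11.9 and 7.71 in cKit. As at Kit, its folds overlapped and only its ranks within each library differed (13.2 points). Ccnd1, encoding the G1 cyclin D1, was Thy1-only on equal lists, with 9.04 and 7.63 in Thy1 and 3.56 and none in cKit, the same direction as Ccnd2. Stra8, the retinoic acid-induced gatekeeper of meiosis, had 6.03 and 3.82 in Thy1 and 11.3 and none in cKit. Rarg, the retinoic acid receptor of this step, had a distal cKit-only region 5326 bp from the nearest start and shared in assignment with Mfsd5 (chromosome 15, 102262732 to 102262886; 8.9 and 5.65), beside a Thy1-only region at a start (102257013 to 102257878; 7.84 and 4.91). Dazl, an RNA-binding protein gene of all germ cells, had 2 distal Thy1-only regions both ways, at 10.3 and 8.73 (chromosome 17, 50309505 to 50310052) and 9.65 and 6.54 (50291596 to 50291772), while its promoter had 28.9 and 21.3 in Thy1 and 16 and 15.9 in cKit. On equal lists, 6.13% of all distal regions were cKit-only and 6.95% Thy1-only. Distal regions of this list were cKit-only in 6 of 50 cases (12%) and Thy1-only in 2 (4%). The 6 lay at Kit, Rarg, Elavl2, Sox4 and, with 2 regions, Lmo1.

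A few promoters of retinoic acid genes ranked higher in one stage. Of 25 genes, 17 had a promoter peak in all 4 libraries, and of 19 shared promoter regions 2 ranked higher in Thy1 and 4 in cKit, against 5.46% and 1.72% of all shared promoter regions. The 2 were receptor genes. Rxrg had 16.9 and 11.5 in Thy1 and 5.34 and 5.14 in cKit (27 points), and Rara had 22.9 and 15.3 against 11.9 and 6.68 (12.1 points). Both also had weaker Thy1-only regions at other starts, such as 6.03 and 4.91 for Rxrg (chromosome 1, 167618064 to 167618651). The 4 were a receptor, Rarb (13.3 and 11.5 against 13.6 and 8.23, 11.7 points), the coactivator Ncoa1 (14.5 and 11.5 against 15.4 and 8.74, 14.9 points) and the retinaldehyde dehydrogenases Aldh1a1 (9.65 and 7.09 against 9.49 and 7.2, 11.8 points) and Aldh1a2 (14.5 and 9.27 against 15.4 and 8.23, 14.4 points). Folds of these 4 overlapped between stages, and the differences are those of ranks. Cyp26b1, an enzyme that degrades retinoic acid, had no promoter peak in any library but a cKit-only region 30773 bp from the nearest start (chromosome 6, 84562913 to 84563162; 10.1 and 4.63). Ncoa1 also had an intronic Thy1-only region (chromosome 12, 4285207 to 4285611; 15.7 and 8.73), and Rxra, the common partner of the receptors, had an intergenic one (chromosome 2, 27554198 to 27554885; 8.44 and 7.09). On equal lists 6 of 44 distal regions were Thy1-only (13.6%) and 4 cKit-only (9.09%), against 6.95% and 6.13% of all distal regions.

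Genes of later stages were mostly alike in presence between the fractions. Of 28 meiotic prophase genes, 11 had a promoter peak in all 4 libraries, 2 were Thy1-only as deposited and 0 cKit-only, where 2.04% and 0.0234% of all genes were so. The 2 were Sycp3, of the synaptonemal complex, with 7.24 and 4.36 in Thy1, and the cohesin gene Smc1b, with 4.22 and 4.91. On equal lists 0 were Thy1-only and 1 was cKit-only, where 1.26% and 0.403% of all genes were so. The 1 was the meiotic recombination gene Msh4 (7.24 and none in Thy1, 8.31 and 3.6 in cKit). Of 12 shared promoter regions of this list, 0 ranked higher in Thy1 and 2 in cKit, against 5.46% and 1.72% of all shared promoter regions. The 2 were those of Rec8 and of Sycp2, another synaptonemal complex gene (9.04 and 6 against 11.9 and 6.17). Of 30 spermatid and sperm genes, 9 had a promoter peak in all 4 libraries, 14 had none in any, and 0 were stage-only. All 20 housekeeping genes had a promoter peak in all 4 libraries, with and without equal lists.

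Markers of somatic cells were read beside these results. The 12 peritubular and smooth muscle genes had promoter peaks in 12, 11, 11 and 7 cases in Thy1 replicates 1 and 2 and cKit replicates 1 and 2, with summed promoter folds of 176 and 112 in Thy1 and 93.8 and 37.5 in cKit. For comparison the housekeeping sums were 505, 388, 381 and 225. On equal lists Tagln (16.3 and 9.27 in Thy1, 5.34 and none in cKit) and Des (15.7 and 8.18, 4.75 and none) were Thy1-only, and the promoters of Lmod1 and Pdgfrb ranked higher in Thy1, 2 of 7 shared, where 5.46% of all shared promoter regions did so. Their distal regions were Thy1-only in 6 of 37 cases (16.2%) and cKit-only in 2 (5.41%), against 6.95% and 6.13% of all distal regions. Housekeeping genes, however, had 3 of 19 (15.8%) and 0. Of 10 endothelial genes, 7, 6, 6 and 3 had promoter peaks, with sums of 64.5 and 57.2 in Thy1 and 53.4 and 18.5 in cKit. Kdr, the VEGF receptor, had 17.5 and 12 against 8.31 and 5.14, and Cdh5 had 6.03 and 6.54 against 16 and 3.6. Pecam1, Tie1 and Vwf had no promoter peak in any library. Of 13 shared distal endothelial regions, 3 ranked higher in Thy1 (23.1%) and 1 in cKit (7.69%), against 8.51% and 13.1% of all shared distal regions. The 1 in cKit was an intron of Cdh5, with 8.44 and 9.82 against 12.5 and 9.25 (15 points). Distal endothelial regions were Thy1-only in 6 of 45 cases (13.3%) and cKit-only in 2 (4.44%), at Cdh5 and Vwf. Sertoli genes had peaks in 14, 13, 14 and 11 of 16 cases, with sums of 218, 173, 162 and 77.7. Of 11 shared Sertoli promoter regions, 1 ranked higher in Thy1, that of Sox9 (18.7 and 18 against 11.3 and 5.65, 12.6 points), and 0 in cKit. Of 16 shared distal Sertoli regions, 4 ranked higher in Thy1 (25%) and 1 in cKit (6.25%). The 1 was an intron of Kitl (7.24 and 6 against 14.2 and 6.17, 28.4 points). On equal lists, 3 of 40 distal Sertoli regions were Thy1-only (7.5%) and 2 cKit-only (5%), at Fshr and Gdnf. Leydig genes had 4, 2, 5 and 1 of 8, and immune genes 3, 2, 2 and 1 of 10, with Ptprc, Csf1r and Cd3e at none. The only shared promoter region of the Leydig list, that of Lhcgr, ranked higher in cKit (7.84 and 7.09 against 10.7 and 6.68, 23.6 points). Of 6 germ cell genes, 5, 4, 5 and 2 had peaks. Over all 21359 genes, 74.3%, 69.4%, 69.5% and 59.5% had a promoter peak in the same order of libraries. The part of somatic cells in the Thy1-only regions, those at Col1a2 and Cdh5 and the ranks of Tcf21 included, was not tested.

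On equal lists, Pde4d, a cAMP phosphodiesterase gene, had the most distal Thy1-only regions, 8 of 32 assigned to it, beside 2 cKit-only ones. N6amt1 had 6 of 32, and 4933433H22Rik, Akap13, Elmo1, Ltbp1 and Tmem132c had 5 each, with 5 of 7 for Tmem132c. Arrdc3, Btbd3 and Ccrn4l had 4 each. In the other direction, Nav2 had 5 of 49 and Tenm4 5 of 42, each beside 3 Thy1-only ones. Ctnna2, an alpha-catenin of neurons, had 4 of 17 with 0 Thy1-only, and Plekhg5 had 4 of 6. Frmd4a, Irs1, Epb4.1l3, 2210417A02Rik, 4930425O10Rik and 4930474G06Rik had 4 each. Long loci hold more regions, so these counts are not rates.

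Promoter composition was described over the RefSeq windows matched by symbol, 15207 of 21359 genes. Windows of promoters in all 4 lists (9384) had a median of 62% G and C and 22 CpG pairs, against 55% and 8 for Thy1-only promoters (277), 58% and 15 for those Thy1-only on equal lists (168), 56.7% and 11 for those cKit-only on equal lists (63), and 47.3% and 3 for genes with no promoter peak in the 4 lists (3484). The 19 motifs were searched on both strands by their letters. For ETS factors these were CCGGAAG, and for SP and KLF factors they were CCCCGCCC. The cAMP response element was read as TGACGTCA, the NFY box as CCAAT, and the AP-1 site as TGANTCA. NRF1 was read as GCATGCGC, and the pair of E-boxes as CACGTG in one case and as CAGCTG in the other. GATA factors were read as AGATAAG, nuclear receptors as AGGTCA or in the longer form that holds it, TCAAGGTCA, and FOXO factors as TGTTTAC. The octamer was ATGCAAAT, the SOX motif was ACAATG, and the DMRT motif was TACANTGT. The RFX motif was GTTGCCAT, the TEAD motif was CATTCC, the RUNX motif was TGTGGT, and the WT1/EGR motif was GCGTGGG. The RFX motif can overlap the NFY motif. The ETS motif stood in 12.8% of all windows, 18.4% of those in all 4 lists, 6.5% of the Thy1-only, and 9.52% and 11.1% of the Thy1-only and cKit-only windows of equal lists. The SP/KLF motif stood in 26.5%, 36.5%, 19.5%, 20.8% and 19% in the same order. The TEAD motif stood in 13.3% of all windows, 19.9% of the Thy1-only, and 17.9% and 7.94% of the Thy1-only and cKit-only windows of equal lists. It stood in 11.4% of windows in all 4 lists and 16.8% of those with no promoter peak. The SOX motif stood in 9.9%, 11.9%, 12.5% and 3.17% likewise, the last being 2 of 63 windows. It stood in 6.38% of windows in all 4 lists and 18.2% of those with no promoter peak.

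Libraries that had not chosen the regions were then read at the same places. Of the 765 regions Thy1-only both ways, 99.1% and 59.6% had a peak in the 2 Scml2-KO Thy1 libraries and 49.4% and 2.22% in the 2 Scml2-KO cKit libraries. Of the 168 regions cKit-only both ways, 56.5% and 4.17% had one in Scml2-KO Thy1 and 98.8% and 7.14% in Scml2-KO cKit. Over all 157837 regions the shares were 60.2% and 28.3% in Scml2-KO Thy1 and 48.4% and 9.78% in Scml2-KO cKit. These lists differ in length (110680 and 52113 peaks in Thy1, 91480 and 17813 in cKit). With the strongest 17813 peaks of each library, the 2953 equal-list Thy1-only regions had a peak in 27.8% and 17.3% of cases in Scml2-KO Thy1 and 2.27% and 5.11% in Scml2-KO cKit. The 2437 cKit-only regions had 1.6% and 3.94% against 46.4% and 10.1%. Over all 51696 regions, which include the strong shared ones, the shares were 34.7%, 32.7%, 34% and 28.9%, above every value of the stage-only regions but the 46.4%. Each Scml2-KO Thy1 library thus held more of the Thy1-only regions than either cKit library, and the reverse held for the cKit-only regions. In wild-type spermatocytes and spermatids, 3.52% to 5.28% of these Thy1-only and 2.75% to 3.36% of these cKit-only regions had a peak, against 19.5% to 22.6% of all 51696 regions.

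**Figure D5:**
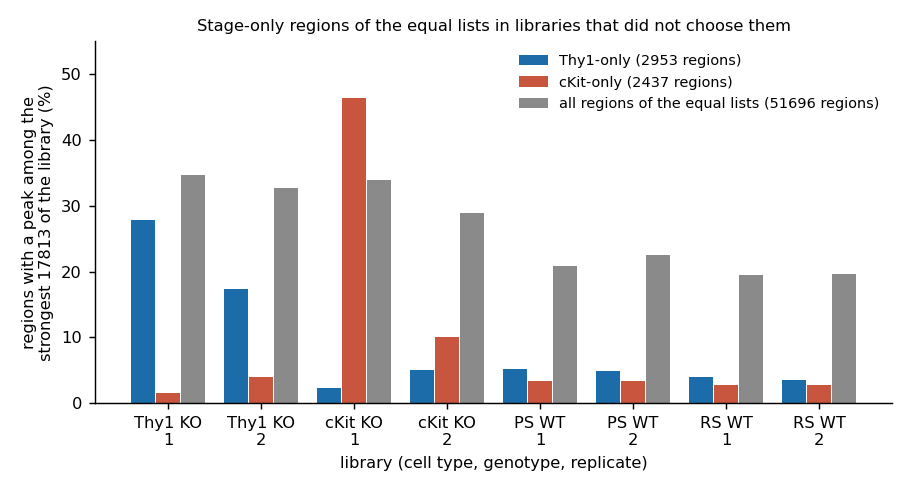
Share of stage-only regions of the equal lists (y axis, %) that had a peak among the strongest 17813 of each library that took no part in choosing them (x axis; KO, Scml2-KO; WT, wild type; PS, pachytene spermatocytes; RS, round spermatids). Thy1-only regions (blue) stand at 27.8% and 17.3% in KO Thy1 and cKit-only regions (red) at 46.4% and 10.1% in KO cKit.

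The named regions were read in the same libraries. The 10 distal Thy1-only regions had peaks in 10 and 8 cases in Scml2-KO Thy1 and 7 and 1 in Scml2-KO cKit, and the 10 distal cKit-only regions had 4 and 1 against 10 and 1. The Cdh5 region had 16.3 and 7.95 in Scml2-KO Thy1 and none in Scml2-KO cKit, and the Robo2 region had 10.2 and none against 27.7 and 4.2. Of the Thy1-only regions both ways, 25.9% were in both Scml2-KO Thy1 and neither Scml2-KO cKit library, against 3.6% of all regions. Of the cKit-only ones, 2.98% showed the same cKit pattern, against 0.0811% of all. Ranks could be read at 13321 regions with a peak in all 8 libraries. Of 672 ranked higher in wild-type Thy1, 13.2% ranked higher in Scml2-KO Thy1 by the same rule and 1.19% the other way, and of 488 ranked higher in wild-type cKit, 31.8% did so in Scml2-KO cKit and 0.82% the other way. All 13321 regions had 4.65% and 4.95%.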

How the data were processed

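The 4 peak lists were called per library. Per the submitters' processing notes, reads on mm10 involved Bowtie 1.1.1 and MACS2 2.1.0.20140616. Options and threshold of the peak caller: not given in the sources used here. The pileup column is a signal value, the coverage at a summit, per the file headers. Fold enrichment is a ratio deposited by the authors, and −log10 p and −log10 q are given per the file headers, as is the peak length in bp. Gene and region classes are the deposited ones.

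Lines with equal chromosome, start and end were joined and the highest summit kept. Peaks on the mitochondrial chromosome were left out. Regions were merged at 1 bp of overlap with pandas 2.3.3 and numpy 2.4.6 under Python 3.11.15, and plots used matplotlib 3.10.9. Start sites are those in the authors' annotation (23656 positions), and 1035 genes named only with another gene were placed by the RefSeq table of GRCm38.p6. The merging and presence steps were tested on simulated lists with a known answer. The rank step was run on the same lists, with no match required. Replicate numbers come from the titles. The deposited files of these 2 cell types number the libraries in the opposite order in both stages, so same-numbered pairs are the same either way.

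Named genes are Thy1 and Kit, the 10 strongest stage-only promoters and distal regions and the 10 largest rank gaps per direction, the 10 genes with most stage-only distal regions, and members of the stem, differentiating and retinoic acid lists that differed. The members and lists were chosen with earlier results of these data known. Alternatives were equal and shorter lists, stricter thresholds, other windows, another scale and leaving out each library. Gene functions are background knowledge.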

Additional observations from a re-analysis of the deposited data

Results flagged for a closer look

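Stage-only calls were set side by side in wild type and Scml2-KO. Against the wild-type pattern, 5 regions were Thy1-only in wild type and cKit-only in Scml2-KO, and 1 region was the reverse. The 5 were 0.0321% of the 15553 Thy1-only regions, where 0.0811% of all regions were cKit-only in Scml2-KO. The 1 was 0.191% of the 524 cKit-only regions, where 3.6% of all regions were Thy1-only in Scml2-KO. Both shares thus lay below those of all regions. None was stage-only on equal lists, and the difference between genotypes was not tested. The 5 lay near Vmn1r2, Ttc34, Caln1, Arhgap44 and Asmt, with wild-type Thy1 folds of 3.27 to 6.03, and the reverse one lay upstream of Nfia. The promoter of Caln1, a calcium-binding protein gene, had 4.82 and 3.27 in wild-type Thy1 and 3.73 and 3.67 in Scml2-KO cKit, with no peak in the other 4 libraries of the 2 stages.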

How the results depend on the processing

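No paired analysis was possible because the result comes from no test. Counts within each replicate number are given with the stage-only regions. Of 63 recomputed values, 20 stayed within 1.5 times the reported count and 43 did not. Equal lists gave 2953 Thy1-only and 2437 cKit-only regions, 270 and 86 promoters, and 858 and 952 regions ranked higher in Thy1 and in cKit. Lists cut to 16178 peaks gave 1098 and 985 regions, 10023 in all 4, and 71 cKit-only promoters. A −log10 q of 5 or more gave 8496 Thy1-only regions, 15668 in all 4 and 12 cKit-only promoters. A fold of 5 or more gave 6383 and 799 regions and 21 cKit-only promoters. Peaks cut around the summit gave 1121 cKit-only regions, and a summit within 1 kb of a start, an alternative chosen after seeing the data, gave 15 cKit-only promoters. Median-centred log2 folds gave 273 regions higher in Thy1, against 1618 in cKit, and a gap of 20 points gave 577 and 908. Leaving out 1 library at a time gave 16407 to 71155 Thy1-only and 816 to 14690 cKit-only regions, 25432 to 44231 in all lists, 493 to 2037 Thy1-only and 8 to 188 cKit-only promoters, and 3490 to 7863 and 3323 to 7503 regions ranked higher in Thy1 and in cKit. The highest Thy1-only counts came without Thy1 replicate 2 (regions) and cKit replicate 1 (promoters), and the highest of the other kinds without cKit replicate 2. The number of peaks called limits every count, and the cause of these shifts was not tested.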
